A study of Drosophila melanogaster with 2 samples.

Results

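The Wingless pathway and glypican genes described here are 10 genes of the deposited expression table, wg, arr, fz2, fz3, arm, Axn, nkd, dally, dlp and Dll. They were taken by their gene symbol out of 13989 genes, and all 10 were found once. All 10 also lay above the minimum used below, an FPKM (fragments per kilobase of transcript, scaled to sequencing depth) that reached 1 in at least one library, which 8275 genes passed. The rule uses the symbols alone and no threshold on a measured value.

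RNA was sequenced from wing discs, the sacs of larval epithelium from which wing and dorsal thorax develop, of wandering third-instar Drosophila melanogaster larvae kept at 25 °C. The enGFP+Tai larvae (genotype label Tai+/GFP+, en>GFP,Tai) expressed Taiman (Tai), which helps the ecdysone receptor to activate transcription, together with green fluorescent protein under the engrailed driver. The enGFP larvae (genotype label GFP+, en>GFP) expressed green fluorescent protein under the same driver, so both genotypes carried the driver and the fluorescent protein. Strain background, sex and age in hours were not found in the labels. The engrailed driver acts in the posterior compartment of the disc, whereas each value averages over whole discs, anterior cells included. Each genotype was a pool of 80 to 100 discs, and the table holds 1 FPKM value per gene and genotype. Triplicates are mentioned in the design text, but replicates were not analysed separately here. No difference below therefore has a replicate check, no SD or test of the genotypes could be computed, and the intervals given cover counting error only.

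Wingless is the founding Wnt protein of the fly. In the late wing disc it is made in a stripe along the boundary between the dorsal and ventral compartments, from which it spreads and patterns the wing margin and the wing blade. It binds a Frizzled receptor together with the co-receptor Arrow, which blocks a cytoplasmic complex built on Axin that would otherwise send the β-catenin Armadillo for destruction. Armadillo then enters the nucleus and turns on target genes with the transcription factor Pangolin. The glypicans Dally and Dally-like are cell-surface proteins that carry heparan sulfate chains, and they shape how far Wingless and other ligands reach. Several parts of the pathway are also its targets: nkd, fz3 and Notum are known to be turned on by Wingless and fz2 to be turned down by it.

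The libraries carried the genotypes of their labels. The tai gene had an FPKM of 879 in enGFP+Tai and 27.1 in enGFP, a ratio of 32.4 (95% counting interval 30.9 to 34.0). The posterior compartment genes en and inv, neighbouring paralogs, had FPKM 46.8 and 53.2 in enGFP+Tai, against 43.2 and 39.0 in enGFP. The depth, estimated from the low values, was about 10609742 fragments for enGFP+Tai and 8120000 for enGFP. The 5 wing disc markers ap, nub, sd, rn and vg were all well above the minimum in both libraries, with summed FPKM of 331 in enGFP+Tai and 365 in enGFP. The haltere gene Ubx, expected to be low in wing epithelium, was not low, at 74.8 in enGFP+Tai and 66.0 in enGFP. A share of other tissue in the pools was not tested.

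Most of the 10 genes had nearly the same level in discs with and without added Tai. None differed by 2-fold or more on the log2(FPKM + 1) scale, on which all differences below are given, and none by 1.5-fold or more. Over all 8275 genes above the minimum, 8.12% differed by 2-fold or more and 13.8% by 1.5-fold or more, in either direction. For 9 of the 10, the difference was below 1.2-fold, and the exception was fz3, the member with the largest difference, which was lower in enGFP+Tai. Of all genes above the minimum, 63.7% also lay within 1.2-fold. Since discs were sampled in bulk, fewer cells with a transcript and less of it per cell cannot be told apart. The median difference of the 10 genes was -0.02, the same to 2 decimals as that of all genes above the minimum. Their median absolute difference was 0.06, against 0.19 for all genes above the minimum. All 10 genes had an FPKM over 20, so the same quantities were taken over the 4992 genes that reached 20 in at least one library. Of these, 5.49% differed by 2-fold or more and 8.85% by 1.5-fold or more, and 69.9% lay within 1.2-fold. Their median difference was -0.06, below that of the 10 genes, and their median absolute difference was 0.17.

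**Figure D1:**
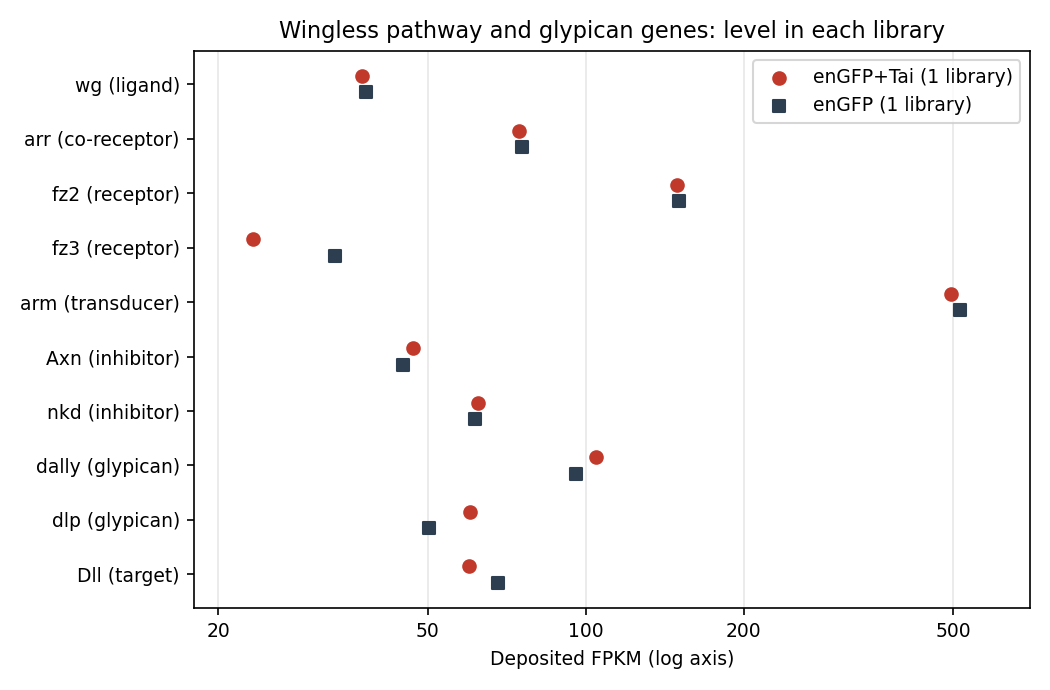
Deposited FPKM (log axis) of the 10 genes in the enGFP+Tai library (red circles) and the enGFP library (dark squares), 1 value per library, ordered by role in the pathway. The symbols of a gene lie close together except for fz3, at 23.3 in enGFP+Tai and 33.3 in enGFP.

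The order of the levels, which FPKM allows because it is per length, was nearly the same in both libraries. From high to low in enGFP+Tai it was arm, fz2, dally, arr, nkd, dlp, Dll, Axn, wg and fz3. In enGFP, Dll stood above nkd and dlp, and the order was otherwise the same. The widest step was from arm to the next gene, fz2, a ratio of 3.32 in enGFP+Tai and 3.43 in enGFP. The steps among nkd, dlp and Dll were the narrowest in enGFP+Tai, with ratios of 1.04 and 1.002 between neighbours. With 1 library per genotype, no spread between samples was available to say which neighbours in this order differ. The gene arm had a higher FPKM than 97.9% of the genes above the minimum in either library, and fz3 a higher one than 47.1% in enGFP+Tai and 59.5% in enGFP.

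The ligand gene wg (FBgn0284084, 2L:7307159-7316265 in BDGP6, plus strand) encodes the secreted Wnt protein Wingless, of 468 amino acids, from a single annotated transcript. Its FPKM was 37.4 in enGFP+Tai and 38.2 in enGFP. The ratio was 0.98 (interval 0.89 to 1.07), resting on an estimated 1074 fragments in enGFP+Tai and 840 in enGFP. The libraries thus differed in wg by less than the counting error. A smaller absolute difference than that of wg was found for 9.28% of the genes above the minimum.

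The Wnt genes Wnt4, Wnt6 and Wnt10 lie beside wg on 2L, with no annotated protein-coding gene between any of the 4. The gaps were 30.0 kb from Wnt4 to wg, 17.4 kb from wg to Wnt6 and 10.8 kb from Wnt6 to Wnt10. Wnt6 had an FPKM of 32.7 in enGFP+Tai and 27.8 in enGFP, a ratio of 1.18 (interval 1.06 to 1.31). Wnt4 and Wnt10, named after their values were seen, were low. Wnt4 had 6.33 in enGFP+Tai and 5.66 in enGFP. Wnt10 had 0.5003 in enGFP+Tai and 0.654 in enGFP, from an estimated 11 fragments in each library, and lay below the minimum. The neighbours thus spanned levels from below 1 to above 37 FPKM in both libraries.

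Of the receptors, arr (FBgn0000119, 2R:13453640-13483229, minus strand) encodes Arrow, the single-pass co-receptor related to vertebrate LRP5 and LRP6, and is the longest member protein with 1678 amino acids. It had an FPKM of 74.6 in enGFP+Tai and 75.7 in enGFP, a ratio of 0.98 (interval 0.94 to 1.03). The receptor gene fz2 (FBgn0016797, 3L:19140975-19235373, minus strand) encodes Frizzled 2, which binds Wingless with high affinity. It had 149 in enGFP+Tai and 151 in enGFP, a ratio of 0.99 (interval 0.95 to 1.03), and the smallest absolute difference of the 10 genes. Both receptor genes were thus level between the libraries to within the counting error, which at these depths was a few percent.

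The third receptor gene, fz3 (FBgn0027343, X:769945-784222, plus strand), stood apart from the other members. It encodes Frizzled 3, a receptor with little signaling activity of its own whose transcription is induced by Wingless in the wing disc. The FPKM was 23.3 in enGFP+Tai and 33.3 in enGFP. The ratio was 0.70 (interval 0.62 to 0.79), resting on an estimated 502 fragments in enGFP+Tai and 550 in enGFP, and the log2 difference was -0.50. Of the 4992 genes that reached an FPKM of 20, 4.07% had a difference at least as low. By absolute size, 83.7% of the genes above the minimum had a smaller difference than fz3. In the authors' deposited table, fz3 had p = 0.6585 and was not called. The level of fz2 exceeded that of fz3 by a factor of 6.41 in enGFP+Tai and 4.52 in enGFP.

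**Figure D2:**
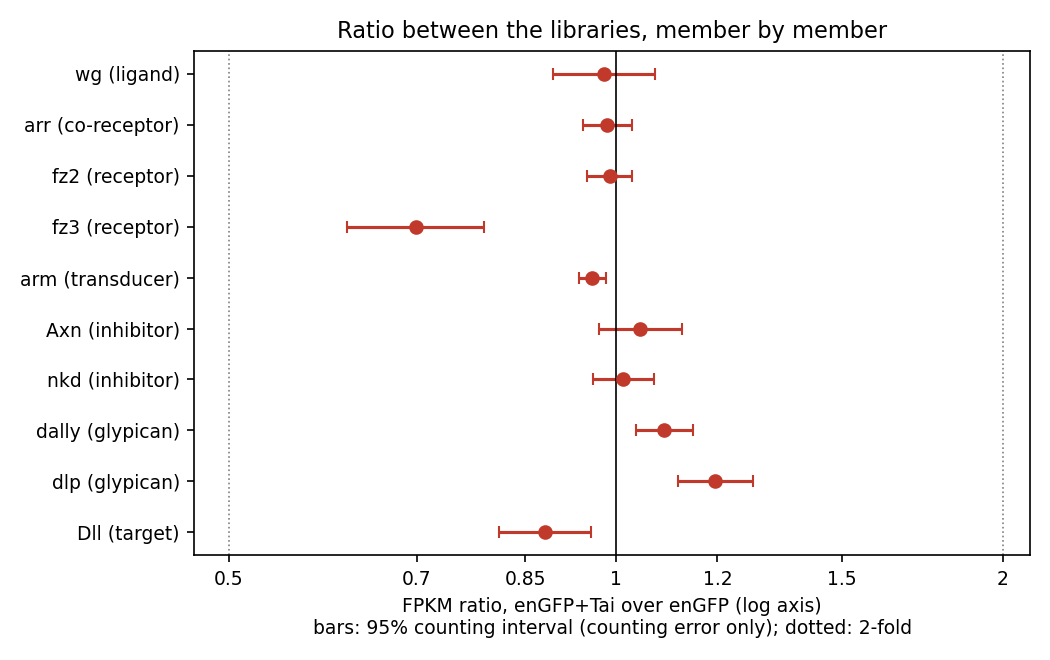
Ratio of FPKM, enGFP+Tai over enGFP (log axis), for each of the 10 genes, with bars for the 95% counting interval from estimated fragments and dotted lines at 2-fold. The interval of fz3, 0.62 to 0.79, does not overlap that of any other member, and those of dally and dlp lie above 1.

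Among the genes that act inside the cell, arm rested on the most fragments and had the narrowest interval. The gene arm (FBgn0000117, X:1891401-1900646, minus strand) encodes Armadillo, the β-catenin that both carries the signal to the nucleus and links cadherin to the cytoskeleton. It was the most abundant member, with an FPKM of 495 in enGFP+Tai and 517 in enGFP. Its ratio was 0.96 (interval 0.94 to 0.98). Up to 82 nt of its exons overlap the gene mRpL16 on the other strand, and reads there cannot be assigned without strand.

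The inhibitor genes Axn and nkd were level between the libraries to within counting error. Axn (FBgn0026597, 3R:30022842-30035311, plus strand) encodes Axin, the scaffold of the complex that marks Armadillo for destruction. It had an FPKM of 46.9 in enGFP+Tai and 44.9 in enGFP, a ratio of 1.04 (interval 0.97 to 1.13). Parts of its exons overlap genes on the other strand, 200 nt for an antisense RNA and 72 nt for ZIPIC, so its level is less certain. The gene nkd (FBgn0002945, 3L:19003741-19045449, minus strand) encodes Naked cuticle, which binds Dishevelled and damps the signal, and is a feedback target of Wingless. It had 62.4 in enGFP+Tai and 61.6 in enGFP, a ratio of 1.01 (interval 0.96 to 1.07). The genes nkd and fz2 lie 95.5 kb apart on 3L with 12 protein-coding genes between them. Although nkd and fz3 are both induced by Wingless, their ratios of 1.01 and 0.70 had intervals that did not overlap.

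Both glypican genes were slightly higher in enGFP+Tai. The gene dally (FBgn0263930, 3L:8827505-8891192, plus strand) encodes a glypican of 626 amino acids that also acts on the BMP ligand Dpp. It had an FPKM of 105 in enGFP+Tai and 95.8 in enGFP, a ratio of 1.09 (interval 1.04 to 1.15). The gene dlp (FBgn0041604, 3L:14632601-14671609, plus strand) encodes Dally-like, a glypican of up to 765 amino acids that binds Wingless and can either hold it back or pass it on. It had 60.2 in enGFP+Tai and 50.3 in enGFP, a ratio of 1.195 (interval 1.12 to 1.28). Its log2 difference of 0.25 was the highest of the 10 genes, and 13.5% of the genes that reached an FPKM of 20 had a difference at least as high. The level of dally exceeded that of dlp by a factor of 1.74 in enGFP+Tai and 1.90 in enGFP.

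The target gene Dll (FBgn0000157, 2R:24814822-24835667, plus strand) encodes the homeodomain protein Distal-less, which Wingless turns on across much of the wing pouch, the part of the disc that forms the blade. Its FPKM was 60.04 in enGFP+Tai and 68.2 in enGFP. The ratio was 0.88 (interval 0.81 to 0.96), and the log2 difference was -0.18. Its absolute difference was larger than that of 48.9% of the genes above the minimum.

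In all, the counting intervals of 5 members held 1 (wg, arr, fz2, Axn and nkd), those of 2 lay above it (dally and dlp) and those of 3 below it (fz3, arm and Dll). Intervals that left out 1 were common in this pair of libraries, at 44.4% of the 5902 genes above the minimum with a fragment estimate. Of these genes, 21.6% had an interval above 1 and 22.8% below it. They were the genes matched by symbol whose transcripts were not too short for an estimate. These shares include low genes, whose intervals are wider than those of the members, and were not computed over genes of like level. The shares therefore cannot say whether 5 of 10 is many or few for genes at the members' level. The authors' deposited table tested all 10 members and called none of them, with p between 0.6585 for fz3 and 0.98165 for fz2, while it called 0.131% of all tested genes.

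**Figure D3:**
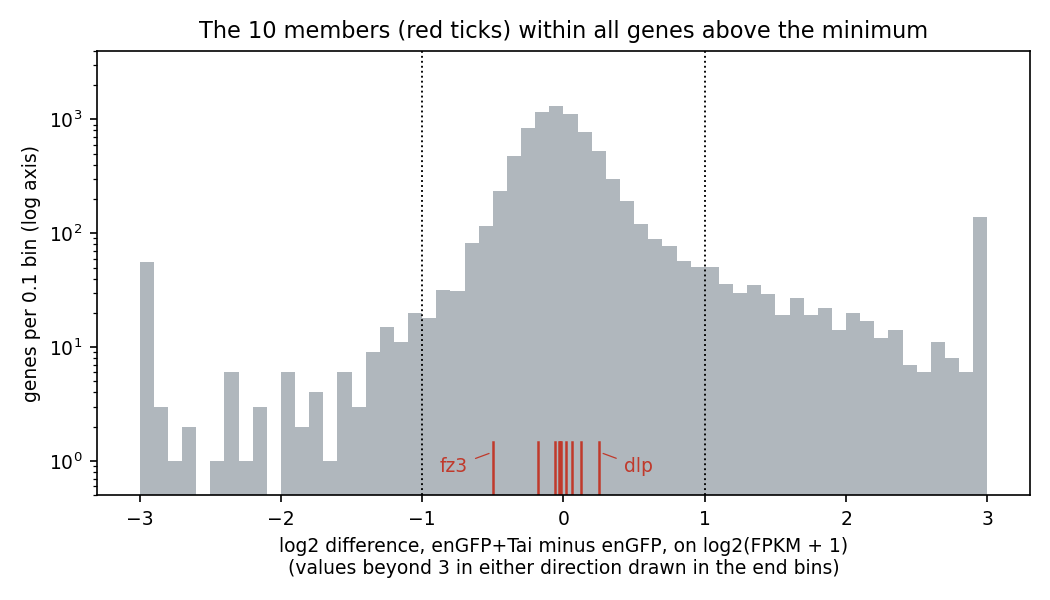
Number of genes (log axis) by log2 difference, enGFP+Tai minus enGFP on the log2(FPKM + 1) scale, for the 8275 genes above the minimum in grey, with the 10 members as red ticks and dotted lines at 2-fold. The members lie between -0.50 (fz3) and 0.25 (dlp), inside the central peak and its lower shoulder, and none reaches a dotted line.

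The rest of the pathway was compared through 8 lists of 57 other genes, of which 50 lay above the minimum. None of the 50 differed by 2-fold or by 1.5-fold, against 8.12% and 13.8% of all genes above the minimum. Of the 50, 24 had a difference above 0 and 26 below it, and their median was -0.02. Among all genes above the minimum, 46.2% had a difference above 0.

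Among the other Wnt ligand genes, the 4 above the minimum had differences from 0.10 to 0.23, all above 0 (median 0.14), but the intervals of Wnt4 and Wnt5 held 1. Wnt6 had the largest, and Wnt2 followed with an FPKM of 44.9 in enGFP+Tai and 40.6 in enGFP. The gene wntD, named after its values were seen, was listed at 0 in both. The secretion and extracellular list had 5 genes above the minimum, 2 above 0 and 3 below it (median -0.06). Sulf1 had the largest difference of all 8 lists, 0.53, with an FPKM of 37.5 in enGFP+Tai and 25.6 in enGFP and a ratio of 1.46 (interval 1.35 to 1.59). It encodes an extracellular enzyme that takes sulfate groups off heparan sulfate. Notum, a secreted enzyme that removes the lipid from Wingless and is itself induced by it, had 11.1 in enGFP+Tai and 14.04 in enGFP, a ratio of 0.79 (interval 0.69 to 0.91).

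The other receptors had 2 of 6 genes above 0 and a median of -0.04. The Frizzled gene fz, which also serves planar polarity, had an FPKM of 56.5 in enGFP+Tai and 50.01 in enGFP, and fz4 had 24.6 in enGFP+Tai and 27.0 in enGFP. In the list of cytoplasmic transducers and the destruction complex, 4 of 8 genes lay above 0 (median -0.03). The destruction complex gene Apc2 had 23.7 in enGFP+Tai and 29.3 in enGFP, and the casein kinase gene gish had 110 in enGFP+Tai and 95.1 in enGFP. The list of the nuclear complex had 4 of 7 genes above 0 (median 0.01). The corepressor genes CtBP and gro had its largest differences, both -0.26 on the log2 scale. CtBP had 279 in enGFP+Tai and 334 in enGFP, and gro had 90.9 in enGFP+Tai and 109 in enGFP.

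**Figure D4:**
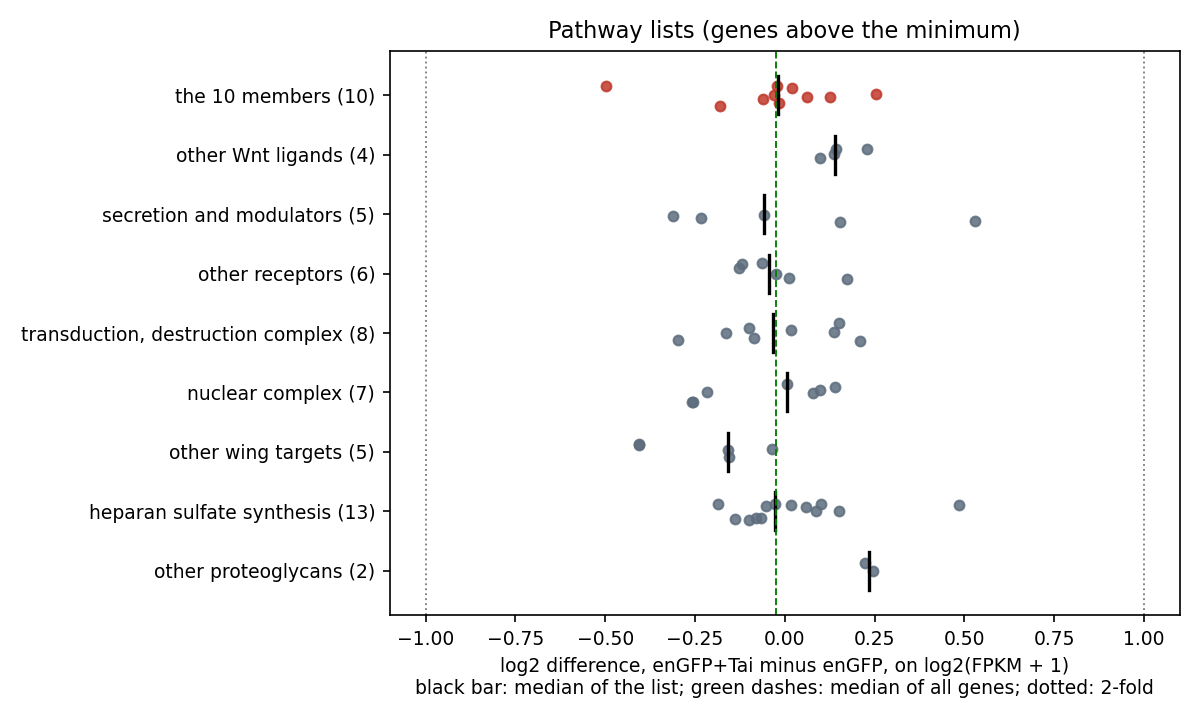
Log2 difference, enGFP+Tai minus enGFP on the log2(FPKM + 1) scale, of each gene above the minimum in the 10 members (red) and the 8 pathway lists (grey), with black bars at list medians and green dashes at the median of all genes. All values lie inside the dotted lines at 2-fold, and the 5 other wing targets lie below 0.

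All 5 genes of the list of other wing targets had lower values in enGFP+Tai, with differences from -0.41 to -0.03 and a median of -0.16. The intervals of 2 of them, vg and ac, held 1. Values below 0 were common, as 46.2% of the genes above the minimum and 40.3% of those that reached an FPKM of 20 lay above 0. The proneural gene sc, needed for bristle precursors, had an FPKM of 31.3 in enGFP+Tai and 41.8 in enGFP, a ratio of 0.75 (interval 0.65 to 0.86). The zinc finger gene sens, which Wingless induces in sensory precursors next to the margin, had 3.63 in enGFP+Tai and 5.12 in enGFP, a ratio of 0.71 (interval 0.52 to 0.96). The wing selector gene vg was level, with 42.9 in enGFP+Tai and 43.95 in enGFP. The 5 wing disc markers, which share vg with this list, had the same sign, from -0.43 for rn to -0.03 for vg with a median of -0.11. The pouch gene rn had 25.6 in enGFP+Tai and 34.8 in enGFP, and nub had 63.0 in enGFP+Tai and 74.8 in enGFP. The part of these markers in the values of fz3, Dll, Notum and the list of targets was not tested.

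Genes for the chains and for 2 other core proteins were set beside the glypicans. Of 13 heparan sulfate synthesis genes above the minimum, 6 lay above 0 and 7 below it (median -0.03). Papss, which makes the sulfate donor, had the largest difference, 0.49, with an FPKM of 32.5 in enGFP+Tai and 22.9 in enGFP. The sugar transporter gene frc had 23.9 in enGFP+Tai and 27.3 in enGFP. The chain polymerase gene sotv, entered under its older name Ext2 and named after its values were seen, was listed at 0 in both genotypes, which can be a failed estimate. A further list held Sdc, for the membrane protein syndecan, and trol, for the basement membrane protein perlecan. Both are heparan sulfate proteoglycan genes and had ratios near that of dlp. Sdc had 104 in enGFP+Tai and 88.9 in enGFP, a ratio of 1.17 (interval 1.09 to 1.26), and trol had 40.5 in enGFP+Tai and 34.0 in enGFP, a ratio of 1.19 (interval 1.14 to 1.25). Cow, a proteoglycan gene placed in the secretion and extracellular list and named after its values were seen, lay below the minimum. It had 0.234 in enGFP+Tai and 0.332 in enGFP (interval 0.20 to 2.86), from an estimated 6 fragments in each library. The 4 core protein genes dally, dlp, Sdc and trol thus had intervals above 1, as did 21.6% of all genes with a fragment estimate. That share was not computed over genes of like level, whose intervals are narrower than those of low genes. By absolute size, dally differed more than 35.3% of the genes above the minimum, Sdc more than 56.9%, trol more than 60.7% and dlp more than 62.1%.

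Of the markers of other larval tissues that can come along with dissected discs, those of blood cells and fat body were higher in enGFP+Tai. The summed levels of the muscle precursor, tracheal and neuronal markers were lower, though not every marker was. The 3 blood cell markers Hml, NimC1 and srp were all higher in enGFP+Tai, with summed FPKM of 6.19 in enGFP+Tai and 1.85 in enGFP. All 3 reached the minimum in enGFP+Tai alone, so as genes above the minimum they could only be higher there. The sums used no minimum. In enGFP, srp and NimC1 rested on an estimated 11 and 8 fragments. The 3 fat body markers Lsp1beta, Lsp2 and Fbp1 were also all higher, with sums of 25.6 in enGFP+Tai and 16.5 in enGFP. None of these 6 markers was at 0 in either library, and their part in the values of dally, dlp, Sdc and trol was not tested. The sums were slightly lower in enGFP+Tai for the 4 markers of adult muscle precursors, at 54.1 in enGFP+Tai and 56.6 in enGFP, and for the 2 tracheal markers, at 23.7 in enGFP+Tai and 24.8 in enGFP. Among the muscle precursor markers, htl was higher, at 11.3 in enGFP+Tai and 9.66 in enGFP, with an interval that held 1. The 2 neuronal markers summed to 8.02 in enGFP+Tai and 9.42 in enGFP. This sum was mostly elav, at 7.19 in enGFP+Tai and 9.32 in enGFP. The other, nSyb, was below the minimum and went the opposite way, at 0.828 in enGFP+Tai and 0.103 in enGFP. The haltere gene Ubx, expected to be low in the wing epithelium proper, had an FPKM of 74.8 in enGFP+Tai and 66.0 in enGFP. It thus lay above 82.2% of the genes above the minimum in enGFP+Tai and 79.1% in enGFP, and its source was not tested.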

How the data were processed

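The data were RNA-seq of pooled wing discs, listed as 1 sample per genotype, which is called 1 library here. How the triplicates of the design text were combined was not found. Per the labels' protocols, 4 µg of total RNA was depleted of ribosomal RNA and made into libraries with the TruSeq kit version 2. Cuffdiff 2.2.1, TopHat2 2.0.12, CASAVA 1.4 and build dm6 are named, without roles, per the submitters' processing notes. The annotation, filters and strand handling they used were not found in the labels. Per the file headers, the authors' deposited table gives 1 FPKM per gene and genotype, scaled by them, and a p-value and q-value per gene with their call (q under 0.05). The loci in the table were offset from dm6 arm by arm. Starts differed by a median of 4112496 bp on 2R, 4174279 bp on 3R, 105968 bp on X, 6901 bp on 3L and 1 bp on 2L. On each arm, 72.9% to 92.1% of the genes lay within 5 kb of its median. Coordinates therefore came from the BDGP6 annotation, Ensembl release 115, by symbol.

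Differences were log2((enGFP+Tai FPKM + 1) / (enGFP FPKM + 1)), which understates differences of low genes; ratios are plain FPKM ratios. Genes that reached an FPKM of 1 in at least one library were kept. Among genes above 0 in both, 304 shared 1 ratio, 0.765, taken as equal fragments. With 215 nt taken off each transcript, the step of 1 fragment gave the depths. At these, 72.7% (enGFP+Tai) and 75.8% (enGFP) of low values of single-transcript genes came out whole within 0.1, where chance without a fit gives 20%. The depth and the length taken off were fitted to make part of these same genes whole, so the share is not an independent check. Fragments of a gene used its shortest transcript and served only for exact 95% counting intervals. The code was tested on simulated data. Python 3.11.15, pandas 2.3.3 and scipy 1.17.1 were used.

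The members and lists were chosen with earlier results of these data known. Named were the members, tai, en and inv, and in each list every gene past 2-fold and the 2 others with the largest absolute difference; other names are marked as chosen after their values were seen or are markers. Alternatives were other pseudocounts, minimums, thresholds, centring and lengths taken off.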

Additional observations from a re-analysis of the deposited data

How the results depend on the processing

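Alternatives gave 263 values for 60 results, of which 255 stayed within and 8 moved beyond the limits (1.5 times for a count, the counting interval for a member's difference, 0.1 on the log2 scale for a median or an interval bound). The 8 were counts over all genes. Some of the 255 could not move: a list with 0 genes past 2-fold has 0 past 3-fold, and each planned minimum kept every member. Centring also shifted all differences by less than these limits, so no member's difference and no median could move by it. With a threshold of 1.5-fold, 813 genes were higher in enGFP+Tai and 325 lower, and at 3-fold 324 and 87, where the 2-fold counts were 522 and 150. A pseudocount of 5 gave 284 higher and 97 lower, and a minimum FPKM of 20, chosen after seeing the data, gave 182 and 92. The count of members past the threshold was 0 in each direction under every planned threshold, pseudocount and centring. Centring on the median of all genes (-0.02) changed the sign of arr (to 0.001), of fz2 (to 0.008) and of the members' median (to 0.005), all near 0. Taking 150 or 250 nt off each transcript moved no member's interval across 1. No paired analysis was possible because each genotype had 1 library, and for the same reason no library could be left out. Depth limits the low genes most: Wnt10 rested on an estimated 11 fragments per library.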

Other observations

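The authors' p-values did not follow the size of the difference in every case. In the authors' deposited table the heparan sulfate glycosyltransferase gene botv, chosen here after its values were seen, had p = 0.05405, the lowest of the 57 other pathway genes, while its FPKM was 14.6 in enGFP+Tai and 15.2 in enGFP. By contrast, the authors' deposited table gave fz3, with its ratio of 0.70, p = 0.6585, and it gave Sulf1, with a ratio of 1.46, p = 0.54855. Of 8089 tested genes above the minimum and above 0 in both genotypes, 3193 lay within 1.1-fold, and 13 of these had a p under 0.1 in the authors' deposited table. Of the 486 that were at least 2-fold different, 25 had a p under 0.1 there, and the median p was 0.424 for these and 0.946 for the genes within 1.1-fold. The cause was not tested.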
